A study of Mus musculus with 2 samples.

Results

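Genes induced by interferon, the receptors and transcription factors that carry the interferon signal, and the genes of antigen processing for MHC class I were followed in mouse NIH 3T3 cells, a fibroblast line of embryonic origin, that were transfected with a plasmid for a truncated ATCE1. ATCE1, now named Creb3l4, is a basic leucine zipper factor of the CREB family. The list held 50 genes, taken by symbol, and 44 of them were found among 12393 genes that had a probe set with exactly 1 annotated symbol. These 44 genes were read by 67 of 22626 probe sets without controls. Isg15, Ifi44, Ifi27, Xaf1, Ddx58 and Oas1g had no such probe set in the annotation used and were not analysed here.

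The ATCE1-C-del cells carried pHA-CMV-ATCE1-C-del, a plasmid whose insert lacks the C-terminal part of ATCE1 and gives the nuclear form of the protein. The empty vector cells carried pHA-CMV without insert. Both cultures were grown in DMEM and received their plasmid with Lipofectamine, so plasmid DNA and lipid were common to both, and total RNA was taken 48 hours later. The labels name no selection of transfected cells, and no source used here gives the share of cells that took up plasmid. In a transfected culture, a change in few cells and a smaller change in all cells cannot be told apart.

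There was 1 Affymetrix array for each culture, so there is no replicate error and no test, and differences are given by size alone. The deposited values are MAS5 signals, 1 per probe set, on a linear scale in arbitrary units. The median signal of each array, 77.5 for ATCE1-C-del and 75.9 for empty vector, was used as a floor near background, which is no detection call. A gene was measured if its brightest probe set reached the floor on at least 1 array, and a signal under the floor was set to the floor before signals were compared. Log2 ratios are of ATCE1-C-del over empty vector throughout. A ratio with 1 signal under the floor is therefore a bound. By this rule 6806 genes were measured, with a median log2 ratio of -0.01, and the middle 95% of them ran from -0.48 to 0.44. All 10 fibroblast markers were measured, whereas 2 of 9 myeloid markers and 0 of 7 lymphocyte, 5 endothelial and 5 epithelial markers reached the floor. The measured myeloid markers were Cd14 and Cd68. Cd14 read 115.7 with ATCE1-C-del against 104.1 with empty vector, and Cd68 read 81.5 with ATCE1-C-del against 50.8 with empty vector. The rest were under both floors. The pan-leukocyte marker Ptprc read 9.50 with ATCE1-C-del against 3.0 with empty vector, and Csf1r, Fcgr1, Itgam and Itgax were also brighter with ATCE1-C-del. Adgre1 (13.3 with ATCE1-C-del against 14.9 with empty vector) and Lyz2 (17.6 with ATCE1-C-del against 19.7 with empty vector) were dimmer. Whether the cultures held any such cells was not tested. Creb3l4 itself read 18.0 with ATCE1-C-del against 20.7 with empty vector, both far under the floors. No source used here says whether its probes lie within the truncated insert, and the labels are thus not checked by this gene.

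Interferons act through paired receptors on the cell surface. Type I interferons bind Ifnar1 and Ifnar2 and lead to a complex with Stat2 and Irf9 that binds the interferon-stimulated response element, whereas interferon gamma binds Ifngr1 and Ifngr2 and acts on gamma-activated sites. Fibroblasts make interferon beta after RNA or DNA is sensed in the cytosol, and they answer interferon with antiviral proteins and with more antigen presentation on MHC class I.

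Promoters of this list were set beside those of genes at large. The list was drawn up as genes of the interferon response, so a high share of interferon elements is no test of it. RefSeq promoter windows of the build GRCm38.p6 were available for 42 of the 50 genes, as 49 windows, and the 250 bases before each gene start were searched on both strands. The core of the interferon-stimulated response element, read as GAAA, any 2 bases and GAAA, was present in 16 of these 49 windows (32.7%), against 2.98% of all 32851 windows. The core of the gamma-activated site, TTCNNNGAA, was present in 9 of 49 windows (18.4%), against 7.02% of all. The cAMP response element TGACGTCA, which many CREB family proteins bind, was in 0 of the 49 windows and in 1.55% of all. With so small a share among all windows, 0 of 49 does not set the members apart. Stretches around the core are printed for the 7 members that carried it and lay above the floor on both arrays, and for Oas1a as an example from those near background. Capitals mark the core, which reads TTTC, any 2 bases and TTTC where it lies on the opposite strand, and overlapping copies run together.
Ifit1 (chr19:34640760-34640838, plus strand): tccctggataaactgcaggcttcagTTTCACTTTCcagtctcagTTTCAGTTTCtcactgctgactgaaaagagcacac
Ifit3 (chr19:34583348-34583441, plus strand): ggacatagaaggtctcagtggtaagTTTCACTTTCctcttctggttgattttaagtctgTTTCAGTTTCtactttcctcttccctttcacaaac
Gbp2 (chr3:142620579-142620638, plus strand): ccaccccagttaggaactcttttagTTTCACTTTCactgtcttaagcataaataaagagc
Irgm1 (chr11:48871421-48871475, minus strand): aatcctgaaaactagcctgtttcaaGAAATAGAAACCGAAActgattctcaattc
Bst2 (chr8:71537562-71537627, minus strand): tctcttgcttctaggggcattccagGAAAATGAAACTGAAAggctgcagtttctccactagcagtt
Stat2 (chr10:128270251-128270310, plus strand): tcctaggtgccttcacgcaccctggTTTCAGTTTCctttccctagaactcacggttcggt
B2m (chr2:122147523-122147582, plus strand): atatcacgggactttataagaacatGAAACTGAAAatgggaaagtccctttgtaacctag
Oas1a (chr5:120907526-120907570, minus strand): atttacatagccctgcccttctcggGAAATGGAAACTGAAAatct

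A match to these letters is a description of the sequence and does not show that a factor was bound. The other genes with the core were Trim30a, measured on the empty vector array only, Cxcl10, Gbp3, Igtp, Irf2 and Rsad2, near background on both arrays, and Isg15 and Oas1g, without a usable probe set. Ifit1 and Ifit3 each held the core in 2 separate places, and Irgm1, Bst2 and Oas1a held 2 overlapping copies.

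Of the 44 genes on the arrays, 27 were measured and 17 lay under the floor on both arrays. By log2 ratio 18 of the 27 (66.7%) were lower with ATCE1-C-del and 9 were higher, against 52.0% lower among all measured genes. The median log2 ratio of the 27 was -0.11, against -0.01 for all measured genes. These signs depend on the scaling. Against the hybridisation controls, probe sets for RNA spiked into the hybridisation mix, 7 of the 27 (25.9%) were lower and 20 were higher. Among all measured genes 13.8% were lower under this scaling. None of the 27 reached 1.5-fold higher, which 0.896% of all measured genes did, and none reached 1.5-fold lower, which 1.12% did. Past a smaller limit, a log2 ratio of 0.32 in either direction, 2 members were higher (7.41%, against 6.55% of all measured genes), namely Irf3 and Irgm1. At the same limit 3 were lower (11.1%, against 8.11%), namely Gbp2, Tap2 and Ifit2. These shares were near those of all genes.

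**Figure D1:**
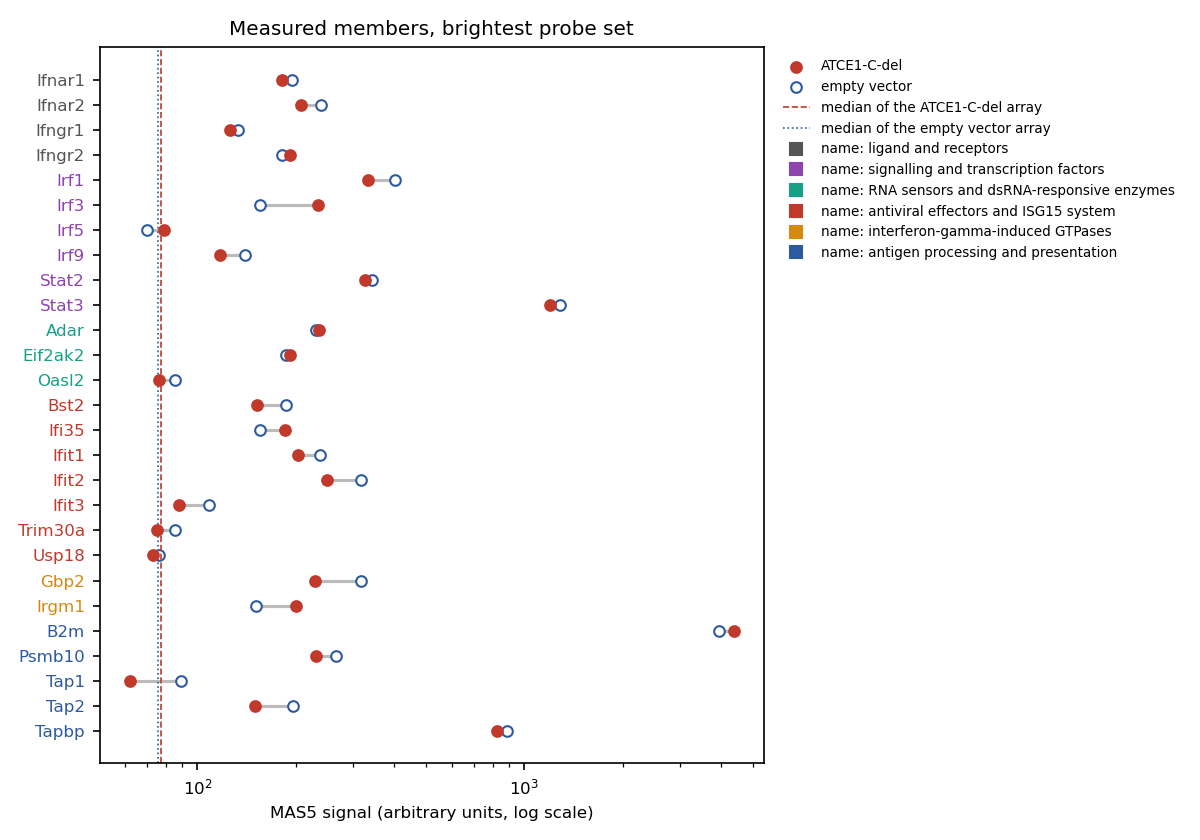
MAS5 signals (arbitrary units, log axis) of the 27 measured members, with the ATCE1-C-del array as filled points, the empty vector array as open points and dashed or dotted lines at the median of each array. The signals lie close together for most genes, and Irf3, Tap1 and Gbp2 show the widest gaps, with the ATCE1-C-del point on the right for Irf3 and on the left for Tap1 and Gbp2.

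The interferon receptors differed little. Ifnar1, a chain of the type I receptor, read 181.3 with ATCE1-C-del against 195.2 with empty vector (1.08-fold lower), and its partner Ifnar2 read 207.5 with ATCE1-C-del against 238.3 with empty vector (1.15-fold lower). Ifngr1, the ligand-binding chain for interferon gamma, read 126.2 with ATCE1-C-del against 133.4 with empty vector, a log2 ratio of -0.08. Its partner Ifngr2 read 191.9 with ATCE1-C-del against 180.8 with empty vector, a log2 ratio of 0.08, and its second probe set read 113.0 with ATCE1-C-del against 88.2 with empty vector, a log2 ratio of 0.35. Both Ifngr2 probe sets were thus on the higher side, the dimmer one further from 0. The ligand gene Ifnb1, which encodes interferon beta, read 20.7 with ATCE1-C-del against 20.4 with empty vector, under the floor on both arrays.

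Among the transcription factors, Irf3 had the largest ratio of the 27 measured members with the floor at the array medians. Irf3 is the constitutive factor that is phosphorylated after sensing of nucleic acids and switches on Ifnb1. Its brightest probe set read 233.7 with ATCE1-C-del against 155.6 with empty vector, a log2 ratio of 0.58 that lay just short of the 1.5-fold limit and at the 99.1st percentile of all measured genes. That probe set is of the type that can match several transcripts. A second Irf3 probe set read 109.9 with ATCE1-C-del against 99.3 with empty vector, a log2 ratio of only 0.14, and the remaining 2 lay near background, between 20.6 and 30.2 on either array. The signals as deposited, without rescaling, put the brightest probe set just over 1.5-fold.

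The factors that act after interferon has bound were on the lower side, with scaling to the hybridisation controls Irf1 and Irf9 only. Irf1, itself an early target of interferon gamma, read 333.5 with ATCE1-C-del against 402.6 with empty vector (1.21-fold lower). Irf9, the DNA-binding partner of the Stat proteins, read 117.2 with ATCE1-C-del against 139.9 with empty vector (1.20-fold lower). Stat2 read 325.4 with ATCE1-C-del against 342.2 with empty vector, a log2 ratio of -0.08, and -0.15 on its second probe set. Stat3, which serves cytokines of the interleukin-6 family as well, read 1197.3 with ATCE1-C-del against 1288.3 with empty vector, a log2 ratio of -0.11, and -0.08 on its second measured probe set. Irf5 was at the edge of detection, at 78.8 with ATCE1-C-del against 69.9 with empty vector, and was at least 1.04-fold higher. Irf2, an antagonist of Irf1, read 51.6 with ATCE1-C-del against 63.4 with empty vector, and Irf7, the inducible amplifier of the type I response, read 39.6 with ATCE1-C-del against 40.8 with empty vector, all of them under the floors.

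The sensors and enzymes that respond to double-stranded RNA were near level where they were measured. Eif2ak2, the kinase PKR that arrests translation, read 191.6 with ATCE1-C-del against 186.4 with empty vector, a log2 ratio of 0.04, and 0.12 on its second probe set. Adar, an RNA-editing deaminase, read 234.8 with ATCE1-C-del against 231.0 with empty vector, a log2 ratio of 0.02. Oasl2, of the oligoadenylate synthetase family, was measured with empty vector only, at 76.3 with ATCE1-C-del against 85.3 with empty vector, and was at least 1.10-fold lower. The helicases Ifih1 (12.3 with ATCE1-C-del against 9.70 with empty vector) and Dhx58 (23.6 with ATCE1-C-del against 27.3 with empty vector) lay far under the floors. Also under them were Oas1a (52.1 with ATCE1-C-del against 46.5 with empty vector), Oasl1 (23.9 with ATCE1-C-del against 22.2 with empty vector) and the Z-nucleic acid sensor Zbp1 (15.5 with ATCE1-C-del against 31.0 with empty vector).

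Antiviral effectors gave the lowest median of the role groups, at -0.22 over 7 measured genes. Where 52.0% of all measured genes were lower, 5 of the 7 were lower and 2 higher. With scaling to the hybridisation controls only Ifit2, Ifit3 and Bst2 of these stayed below 0. The 3 Ifit genes, whose products bind viral RNA and hold back its translation, were all lower, except that Ifit1 stood at 0.03 with scaling to the hybridisation controls. Ifit2 read 249.7 with ATCE1-C-del against 316.2 with empty vector (1.27-fold lower), Ifit3 read 88.1 with ATCE1-C-del against 108.5 with empty vector (1.23-fold lower) and Ifit1 read 203.3 with ATCE1-C-del against 236.3 with empty vector (1.17-fold lower). Each Ifit gene had 1 probe set, so no second reading was available. Bst2, the membrane protein tetherin that holds budding virions at the cell, read 152.1 with ATCE1-C-del against 186.2 with empty vector (1.23-fold lower). Ifi35 went the other way, at 185.5 with ATCE1-C-del against 154.9 with empty vector (1.19-fold higher).

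The remaining effectors were close to the floor or under it. Trim30a, a negative regulator of inflammatory signalling, read 75.5 with ATCE1-C-del against 85.4 with empty vector and was at least 1.11-fold lower. Usp18, the protease that removes Isg15 from proteins and dampens the type I receptor, read 73.3 with ATCE1-C-del against 76.5 with empty vector. Its signal was lower with ATCE1-C-del, yet its log2 ratio was 0.01 because the floors of the arrays differ, so it counts among the 9 higher genes by construction only. Mx1 (16 with ATCE1-C-del against 8.80 with empty vector), Mx2 (3.60 with ATCE1-C-del against 4.30 with empty vector) and Rsad2 (19.0 with ATCE1-C-del against 20.2 with empty vector), widely used markers of a type I interferon response, were under the floors. Cxcl10, a chemokine induced by interferon gamma, read 57.2 with ATCE1-C-del against 13.4 with empty vector, and both values lie where MAS5 signals vary by large factors, so no fold is given.

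**Figure D2:**
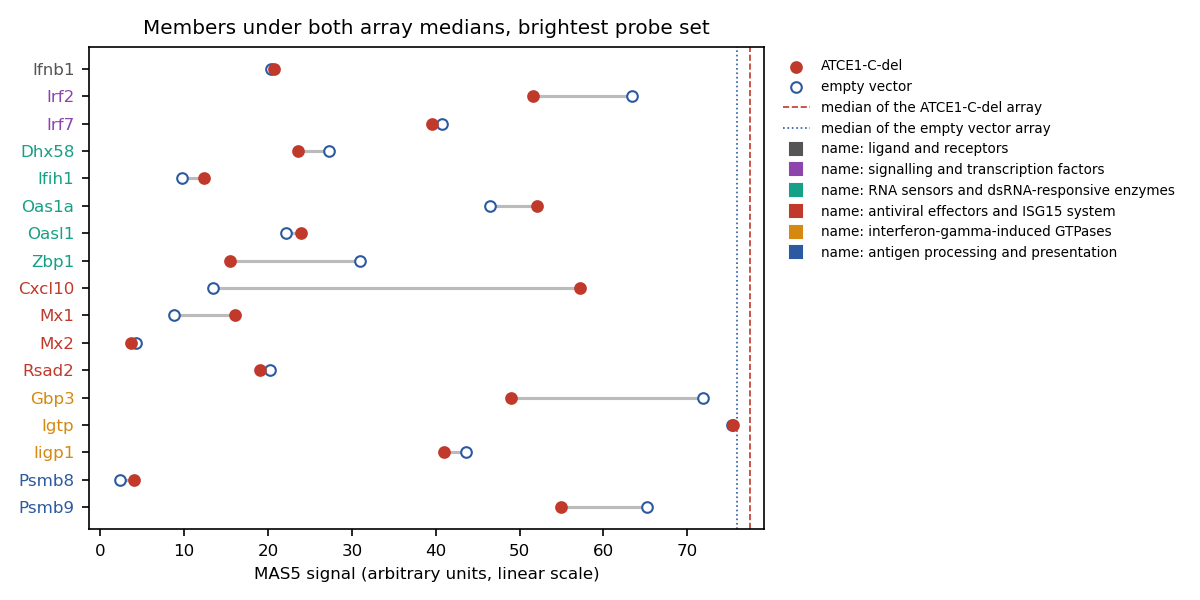
MAS5 signals (arbitrary units, linear axis) of the 17 members under both array medians, with the ATCE1-C-del array as filled points and the empty vector array as open points. The signals ran from 3.60 to 75.5 with ATCE1-C-del and from 2.30 to 75.4 with empty vector, and Igtp sits just under the lines that mark the medians.

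The GTPases induced by interferon gamma split. Gbp2, a guanylate-binding protein that attacks the vacuoles of intracellular pathogens, read 229.3 with ATCE1-C-del against 316.0 with empty vector (1.38-fold lower, the 2.82nd percentile of all measured genes). Its second probe set, of the type that can match several transcripts, read 201.3 with ATCE1-C-del against 281.5 with empty vector, a log2 ratio of -0.49 beside -0.47 for the brighter one. Both readings of Gbp2 were therefore close to each other, and further from 0 than those of any other member on the lower side with both signals above the floor. Irgm1, a regulator of the immunity-related GTPases, read 200.8 with ATCE1-C-del against 151.2 with empty vector (1.32-fold higher), on its only probe set. Igtp, another GTPase of that family, read 75.5 with ATCE1-C-del against 75.4 with empty vector, just under both floors. Gbp3 (49.0 with ATCE1-C-del against 71.9 with empty vector) and Iigp1 (41.0 with ATCE1-C-del against 43.6 with empty vector) were also under the floors.

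Of the genes that prepare peptides for MHC class I, 4 of 5 measured were lower, against 52.0% of all measured genes. With scaling to the hybridisation controls only Tap2 of the 5 was lower. Tap2, a half-transporter that moves peptides into the endoplasmic reticulum, read 149.7 with ATCE1-C-del against 196.5 with empty vector (1.32-fold lower). Its partner Tap1 read 62.1 with ATCE1-C-del against 89.4 with empty vector and was at least 1.16-fold lower, since the ATCE1-C-del signal was under the floor. A floor at the 25th percentile of each array gave it a log2 ratio of -0.53. The remaining 3 probe sets of Tap1 lay between 1.0 and 12.9 on either array. Tapbp, which encodes tapasin and links the transporter to class I molecules, read 824.3 with ATCE1-C-del against 887.1 with empty vector, a log2 ratio of -0.11, and -0.13 on its second probe set.

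Psmb10, a catalytic subunit of the immunoproteasome, read 231.0 with ATCE1-C-del against 264.5 with empty vector (1.15-fold lower). The other inducible subunits were near background, Psmb9 at 54.9 with ATCE1-C-del against 65.2 with empty vector and Psmb8 at 4.0 with ATCE1-C-del against 2.30 with empty vector. Their constitutive counterparts were all measured, with log2 ratios of 0.20 for Psmb5, 0.11 for Psmb6 and -0.03 for Psmb7. B2m, the light chain shared by class I molecules, read 4365.3 with ATCE1-C-del against 3928.2 with empty vector (1.11-fold higher), and 0.06 in log2 ratio on its second probe set.

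**Figure D3:**
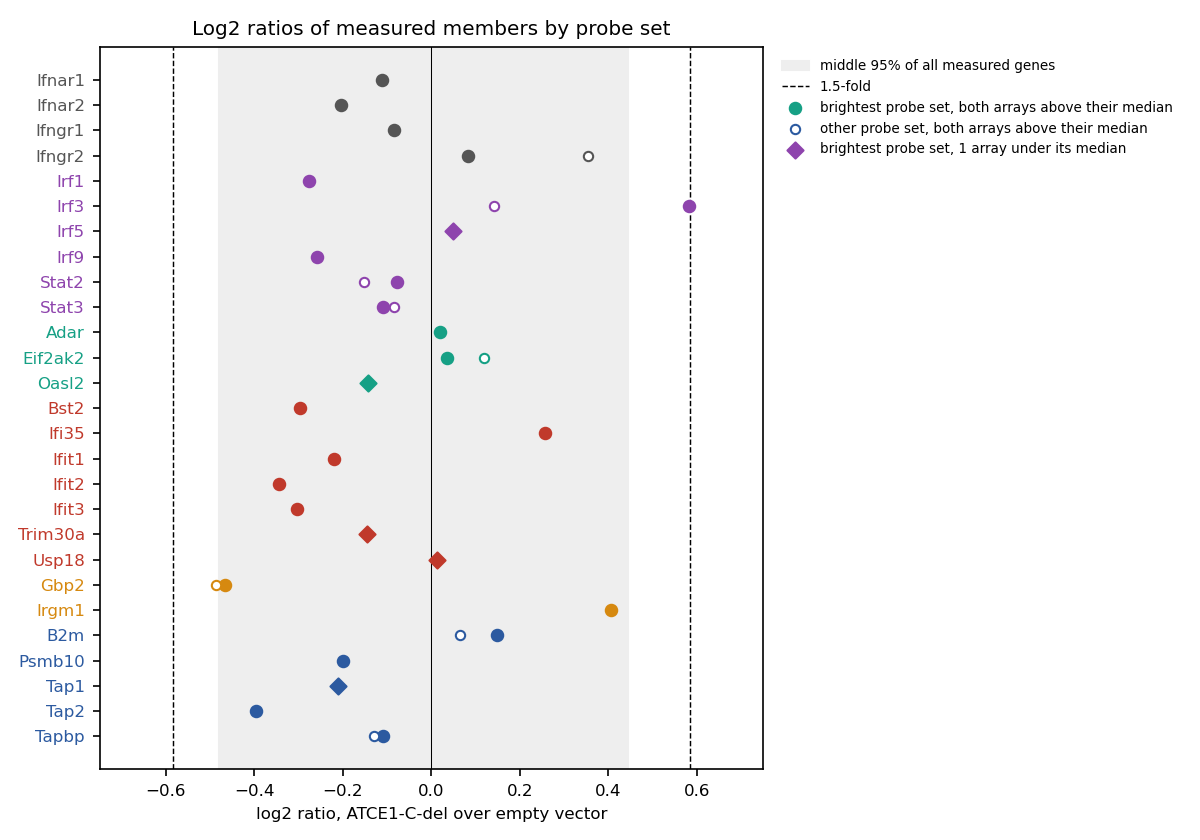
Log2 ratios of ATCE1-C-del over empty vector for every measured probe set of the members, with the brightest probe set filled, others open, and diamonds where 1 array lay under its median. The shaded band is the middle 95% of all measured genes (-0.48 to 0.44), the dashed lines mark 1.5-fold, and Irf3 alone of the brightest probe sets lies outside the band.

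Probe sets of the same gene gave the only internal check. B2m, Eif2ak2, Gbp2, Ifngr2, Irf3, Stat2, Stat3 and Tapbp had 2 probe sets above the floor on both arrays, and in all 8 both lay on the same side of 0. Over all 2451 genes with such a pair, 59.9% did, and the spread between probe sets of one gene came to an SD of 0.20 (log2) for each. The members' pairs differed by a median of 0.08 in log2 ratio, against 0.17 over all such genes. Such pairs read the same RNA on the same arrays, so they carry no information on how cultures vary.

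Promoters with and without the response element core were set side by side among the measured members that had a promoter window. Measured members without a window were left out. Of 8 with the core, 6 were lower, 2 were higher and the median was -0.18 on the log2 scale. These were Gbp2, Ifit3, Bst2, Ifit1, Trim30a and Stat2 on the lower side and Irgm1 and B2m on the higher side. Of 17 without it in the window, 11 were lower and 6 higher, with a median of -0.11. Among all measured genes 52.0% were lower. With scaling to the hybridisation controls 3 of the 8 were lower and 5 higher (median 0.07). Of the 17, 3 were then lower and 14 higher (median 0.14), and of all measured genes 13.8% were lower. Members on both sides of 0 carried the core under either scaling.

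Further genes of the pathway, from lists that hold no member, mostly lay in the same range. These lists were also chosen with earlier results of these data known. Of 44 measured genes in 5 lists, 29 were lower (65.9%, against 52.0% of all measured genes) and 15 were higher. Their median was -0.05 on the log2 scale. With scaling to the hybridisation controls 6 were lower and 38 higher, against 13.8% lower among all measured genes. Those 6 were Rtp4, Parp12, Nmi, Lgals3bp, H2-M3 and Erap1. Without that scaling, only 1 of the 44 was at least 1.5-fold higher, where 0.896% of all measured genes were. At least 1.5-fold lower were 2 of the 44, where 1.12% of all measured genes were. Both lower ones came from the list of other interferon-induced genes. Rtp4, a chaperone of receptors that type I interferon induces strongly, read 215.0 with ATCE1-C-del against 322.3 with empty vector, a log2 ratio of -0.59. Parp12, an ADP-ribosyltransferase, read 166.1 with ATCE1-C-del against 248.8 with empty vector, also -0.59. Both lay just past the limit, on a single measured probe set each.

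The higher one was Ccl5, a chemokine gene that Irf3 and NF-kB can both activate. It read 401.6 with ATCE1-C-del against 90.6 with empty vector, a log2 ratio of 2.14. Whether Irf3 or NF-kB had a part in this was not tested. The chemokine gene Cxcl10 read 57.2 with ATCE1-C-del against 13.4 with empty vector, but both signals were under the floor and it was not compared.

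The other interferon-induced genes had 10 of 15 measured on the lower side (4 with scaling to the hybridisation controls), against 52.0% of all measured genes. The median of the 15 was -0.11. Lower ones included Nmi (-0.45) and Lgals3bp (-0.38), and higher ones included Trim21 (0.14), Samhd1 (0.10) and Ifi47 (0.10). The second probe set of Trim21 had a log2 ratio of -0.04, as a bound, and 1 of the other probe sets of Samhd1 read 97.7 with ATCE1-C-del against 5.20 with empty vector.

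In the signalling list 8 of 10 measured genes were lower (0 with scaling to the hybridisation controls), against 52.0% of all measured genes. The median of the 10 was -0.09. Ptpn2, a phosphatase that acts on Jak and Stat proteins, had -0.24, but its second probe set had 0.37. The kinase gene Jak1 had -0.13 and its other probe sets -0.44 and -0.01. The feedback inhibitor Socs3 had -0.12 on its brightest probe set but 0.09 and 0.48 on the others. Stat5a was at least 1.09-fold lower, and Tyk2 (0.03) and Stat6 (0.00) were level. Of the innate sensing and adaptor genes 5 of 7 were lower (0 with that scaling), and their median was -0.03. On brightest probe sets they ran from -0.15 for Trim25 to 0.05 for Mavs. Myd88 (-0.04), Tbk1 (-0.04), Ikbke (-0.03, as a bound) and Traf6 (0.02) lay between. The other measured probe sets of Trim25 had -0.02 and 0.11, and the second of Tbk1 had -0.39.

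Of the other antigen presentation genes 5 of 9 were lower (2 with scaling to the hybridisation controls), against 52.0% of all measured genes. The lowest were H2-M3, a non-classical class I gene, at -0.44, and Erap1, which trims peptides in the endoplasmic reticulum, at -0.40. Psme1, an interferon-inducible proteasome activator subunit, had -0.25. Psme3, a relative that is not part of that activator, had 0.47 and 0.26 on its measured probe sets. Also higher on their brightest probe sets were Calr (0.10), Pdia3 (0.09) and Canx (0.02, with 0.19 and -0.05 on its others). The classical class I genes H2-K1 (-0.09) and, outside the naming rule, H2-D1 (-0.05) were near level on their brightest probe sets, with other measured probe sets from -0.22 to 0.08 for H2-K1 and from -0.41 to 0.01 for H2-D1. Probe sets of these genes can match several class I genes, so their signals cannot be assigned to 1 gene with certainty. The class II genes Cd74, H2-Aa, H2-Ab1 and H2-Eb1 and their activator Ciita were under the floor on both arrays.

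**Figure D4:**
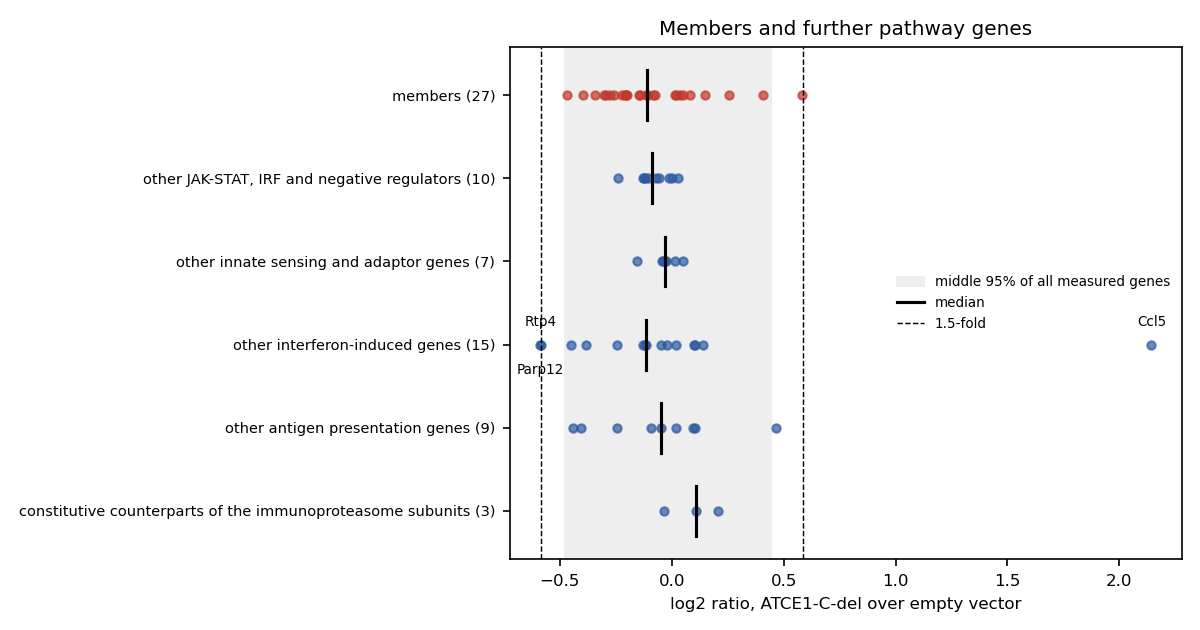
Log2 ratios of ATCE1-C-del over empty vector for the measured members (top row) and for the measured genes of 5 further lists, with the number of genes in parentheses and a bar at each median. The medians lie between -0.11 and 0.11, and Ccl5, Rtp4 and Parp12 are the genes past the dashed lines at 1.5-fold.

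These ratios rest on the premise that most genes were alike on both arrays. The 18 hybridisation control probe sets lay at a median of -0.25 on the log2 scale. When the arrays were scaled to them, all measured genes had a median of 0.24 and the members one of 0.14, so that 20 of the 27 were higher and 7 lower. Relative to all genes the members' median was lower by 0.10 in both cases. That gap could not differ, since scaling to the controls shifts every log2 ratio by the same amount. Gbp2 (-0.22), Tap2 (-0.15), Ifit2 (-0.09), Ifit3 (-0.05), Bst2 (-0.05), Irf1 (-0.03) and Irf9 (-0.01) kept a ratio below 0 under this scaling, and the ratios of the other 11 lower genes turned positive. The split of all genes at 1.5-fold, 61 higher and 76 lower, became 407 and 13 under this scaling, and 47 and 90 with array medians.

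**Figure D5:**
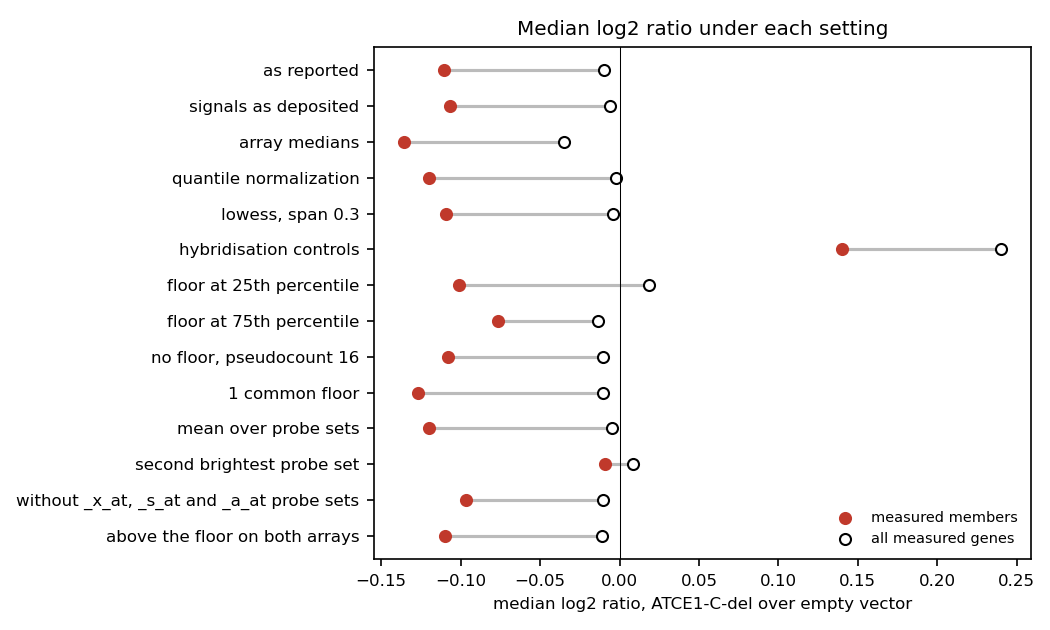
Median log2 ratio (ATCE1-C-del to empty vector) for the measured members (filled) and for all measured genes (open) under each setting of scaling, floor and probe set choice. The members' median lies left of that of all genes in every row, and scaling to the hybridisation controls alone moves both to the right of 0. The rows for deposited signals, array medians and hybridisation controls shift all ratios alike, so their gap equals the reported one by construction.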

How the data were processed

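The deposited values are intensity values on a linear scale, MAS5 signals per the submitters' processing notes, which name no version. No source used here gives the scaling target, masks or detection calls. Arrays were each divided by its mean after trimming 2% at each end, which changed the deposited intensities by under 1%, and floored at its median. The brightest probe set over both arrays (mean log2 signal) stood for its gene. Symbols came from the platform annotation (20380 probe sets with 1 symbol, 691 with several, 1555 with none). Entrez IDs of the 67 member probe sets matched a RefSeq table of GRCm38.p6 and changed 0 symbols.

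Members and gene lists were chosen with earlier results of these data known. Every member is named, and of each further list those past 1.5-fold and up to 4 per direction. Other scalings, floors and probe set choices were tried. With 1 array per group, the number of arrays limits the precision. Python 3.11.15, numpy 2.4.6, pandas 2.3.3, statsmodels 0.14.6 and matplotlib 3.10.9 were used.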

Additional observations from a re-analysis of the deposited data

How the results depend on the processing

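The count of members at least 1.5-fold higher, 0 as reported, was 1 with signals as deposited, quantile normalization or lowess (Irf3 each time), and 2 with scaling to the hybridisation controls (Irf3 and Irgm1). With the floor at the 25th percentile it was 2 (Mx1 and Cxcl10), with 1 lower (Zbp1), and 42 members counted as measured, 14 higher and 28 lower. The 75th percentile left 7 members, 1 higher and 6 lower, and the second brightest probe sets covered 8, of which 4 were higher and 4 lower. The smaller limit, a log2 ratio of 0.32, gave 2 higher and 3 lower, and 2-fold gave 0 of either. Scaling to the hybridisation controls gave 20 higher and 7 lower, where 13.8% of all measured genes were lower, and turned the members' median to 0.14. In the other settings tried the median stayed below 0, from -0.14 with array medians to -0.0093 on the second probe sets. Over all genes, the 61 higher and 76 lower became 798 and 281 with the floor at the 25th percentile, 9 and 19 at the 75th, 48 and 49 with the mean over probe sets and 37 and 49 on the second ones. Of 297 single-gene values under alternatives, 263 lay within the SD between probe sets of the reported value. Many of them had to, because several settings leave a ratio unchanged or shift all ratios by a small constant. With scaling to the hybridisation controls all 27 values lay outside that SD. They had to, because this scaling shifts every ratio alike by more than that SD. There was no replicate to leave out. No paired analysis was possible because each group has 1 array.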
